A study of Mus musculus with 22 samples.

Results

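Interferon-stimulated genes are the genes that a cell switches on when interferon binds its receptors, and 33 of them, listed by name, make up the set described here. Each gene was read from the probe set that is annotated to it alone and has the highest mean over all 22 arrays. Of the 33 members, 31 had such a probe set, out of 18193 mouse genes read in the same way. *Isg15* was covered here only by a probe set shared with *Gm9706*, and *Ifi44* by no named probe set, so neither counts among the 31. Several probe sets of their own were available for 12 members and 1 for the other 19. All 31 had a mean above 4.22, the median over the means of all probe sets, on the log2 scale of the arrays.

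The tissue was granulation tissue, the new connective tissue that fills a wound, grown in viscose cellulose sponges under the back skin of mice and taken 7, 14 and 21 d after implantation. WT mice were compared with *Mmp13*-/- mice, in which the gene of the collagenase MMP-13 is disrupted in the whole animal and not in a chosen cell type. Each genotype had 3 arrays at 7 d, 4 at 14 d and 4 at 21 d, and the design notes give 1 sample per mouse. All mice were 5 to 8 weeks old and are labelled as of mixed C57BL/6 x 129 background, while the notes speak of a backcross over at least 7 generations to C57BL6, with the WT mice bred from the backcrossed heterozygotes. The labels name no infection and no interferon treatment in any group. RNA came from the ends of whole sponges, so that fewer cells of a type and less RNA per cell cannot be told apart. The arrays were hybridized in 2 series, which differed in RNA input and labelling kit. In series 1 were the 6 arrays of 7 d and the first 3 replicates of each genotype at 14 d. In series 2 were the 8 arrays of 21 d and the remaining replicate, number 4, of each genotype at 14 d.

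Arrays of a group correlated with each other at 0.977 to 0.996 over all probe sets, and the array medians lay between 4.16 and 4.27. *Mmp13* itself read 10.26 to 12.02 on the WT arrays and 7.62 to 8.63 on the *Mmp13*-/- arrays, without overlap at any day, and the lower *Mmp13*-/- level passed the test at each of them. Where its probe set lies relative to the disrupted part of the gene is not given in the sources used here. A probe set is called dim here if its mean is under 4.22. Of 11 fibroblast markers measured, 11 were not dim, as did 13 of 13 macrophage markers.

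In the textbook pathway, type I interferons such as interferon alpha and beta bind a receptor whose kinases switch on transcription factors, STAT2 among them. STAT2 and IRF9 act in a complex that binds a short DNA element, the interferon-stimulated response element (ISRE), in the promoters of its targets. Interferon gamma uses another receptor, and its signal acts through another element, the gamma-activated site (GAS). The products of the targets sense viral nucleic acid, degrade or mask viral RNA, block the assembly of viruses and feed back on the signal, and plasmacytoid dendritic cells that enter injured skin are a known source of type I interferon.

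Promoter stretches of 60 bases around the ISRE letters are shown for 10 members, since the promoter is where the pathway meets these genes. They come from the RefSeq windows of GRCm38.p6, which run from 250 bases before to 50 after the annotated start, and are written 5′ to 3′ on the strand of the gene. Capitals mark the ISRE letters, GAAA, any 2 bases and GAAA again, or their reverse complement, with overlapping matches run together. The first 5 belong to RNA-binding and other antiviral proteins (*Ifit1*, *Ifit3*, *Rsad2*, *Oas1a*, *Oas3*), the next 4 to interferon-inducible GTPases (*Gbp2*, *Gbp3*, *Irgm1*, *Igtp*), and the last to tetherin, which holds budding viruses on the cell surface (*Bst2*).
Ifit1 (chr19:34640769-34640828, plus strand): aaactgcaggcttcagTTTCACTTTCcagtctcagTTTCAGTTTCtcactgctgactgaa
Ifit3 (chr19:34583365-34583424, plus strand): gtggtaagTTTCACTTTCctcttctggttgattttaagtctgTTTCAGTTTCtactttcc
Rsad2 (chr12:26456538-26456597, minus strand): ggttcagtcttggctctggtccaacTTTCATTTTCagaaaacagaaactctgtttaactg
Oas1a (chr5:120907526-120907585, minus strand): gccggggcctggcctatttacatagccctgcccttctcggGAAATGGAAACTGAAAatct
Oas3 (chr5:120777700-120777759, minus strand): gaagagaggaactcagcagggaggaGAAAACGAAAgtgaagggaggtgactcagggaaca
Gbp2 (chr3:142620579-142620638, plus strand): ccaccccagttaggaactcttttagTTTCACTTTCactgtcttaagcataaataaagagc
Gbp3 (chr3:142559977-142560036, plus strand): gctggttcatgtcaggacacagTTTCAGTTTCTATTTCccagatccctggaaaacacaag
Irgm1 (chr11:48871421-48871480, minus strand): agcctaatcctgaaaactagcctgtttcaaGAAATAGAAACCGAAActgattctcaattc
Igtp (chr11:58199496-58199555, plus strand): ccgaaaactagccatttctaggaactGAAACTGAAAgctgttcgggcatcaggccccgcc
Bst2 (chr8:71537565-71537624, minus strand): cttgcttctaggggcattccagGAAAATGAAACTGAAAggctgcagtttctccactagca

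Windows were found for 24 of the 33 members, and none for *Dhx58*, *Iigp1*, *Mx1*, *Mx2*, *Oas2*, *Parp14*, *Rtp4*, *Usp18* and *Zbp1*. The ISRE letters, searched on both strands, were in the windows of 13 of the 24 (54.2%), against 3.99% of all 27025 genes with a window of the same length. Besides the 10 genes shown, they were in those of *Ifih1*, *Isg15* and *Stat2*. *Isg15* held 3 matches, *Bst2*, *Gbp3*, *Ifit1*, *Ifit3*, *Irgm1* and *Oas1a* held 2, and the other 6 held 1. The matches of *Isg15*, *Bst2*, *Gbp3*, *Irgm1* and *Oas1a* overlap in a single run, and only those of *Ifit1* and *Ifit3* lie apart. The GAS letters, TTC, any 3 bases and GAA, were in 5 of 24 windows (20.8%), those of *Bst2*, *Ifi35*, *Ifit2*, *Igtp* and *Oas1a*, against 9.55% of all genes. A match is a run of letters and no measured binding site.

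**Figure D1:**
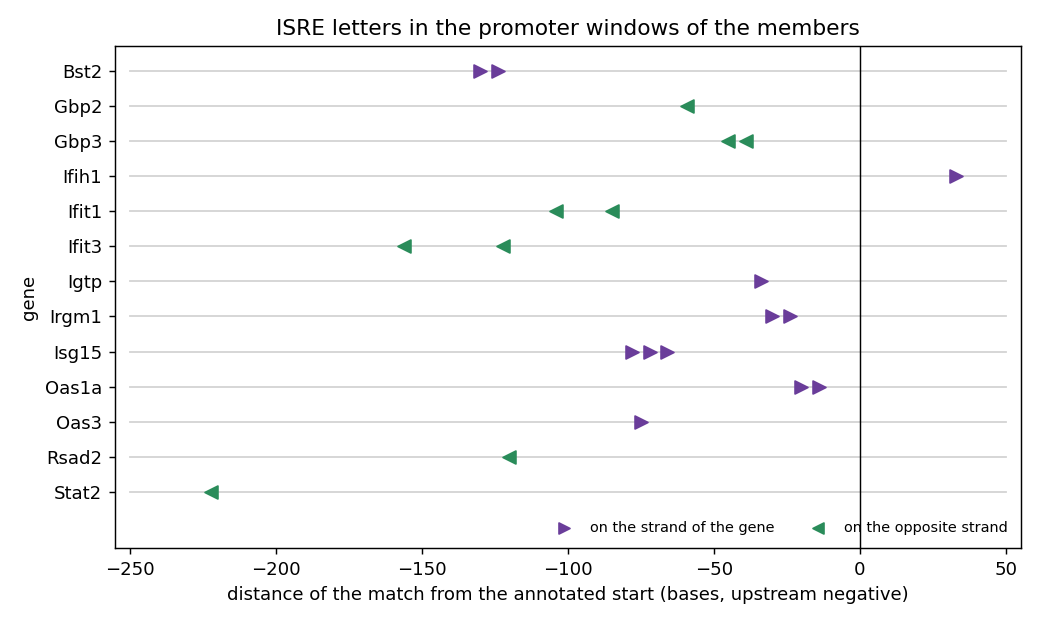
Distance of each ISRE match from the annotated start, in bases on the x axis, for the 13 members that hold one; grey lines are the windows searched, and the direction of a triangle gives the strand. All matches but that of *Ifih1*, at 33 bases after the start, lie upstream, and the farthest is that of *Stat2* at -222.

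As a group, the interferon-stimulated genes were higher in young granulation tissue than in old tissue in both genotypes. The mean log2 value of the 31 members in WT tissue was 9.65, 9.72 and 9.78 on the arrays of 7 d, 9.34, 8.84, 9.19 and 8.53 on those of 14 d, and 7.98, 7.75, 7.76 and 7.73 on those of 21 d. The *Mmp13*-/- arrays gave 9.46, 9.74 and 9.25 at 7 d, 8.58, 8.84, 8.61 and 9.01 at 14 d, and 7.57, 7.04, 8.17 and 7.68 at 21 d. The days did not overlap within either genotype, whereas the genotypes overlapped at each day. Group means were 9.72 ± 0.06 (SD, n = 3), 8.97 ± 0.36 (n = 4) and 7.80 ± 0.12 (n = 4) in WT and 9.48 ± 0.25, 8.76 ± 0.20 and 7.61 ± 0.46 in *Mmp13*-/- tissue. At 21 d, compared with 7 d, the mean of the members was 3.77-fold lower in WT and 3.65-fold lower in *Mmp13*-/- tissue. These values are a description, with no test, and no array of 7 d shares a hybridization series with one of 21 d.

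**Figure D2:**
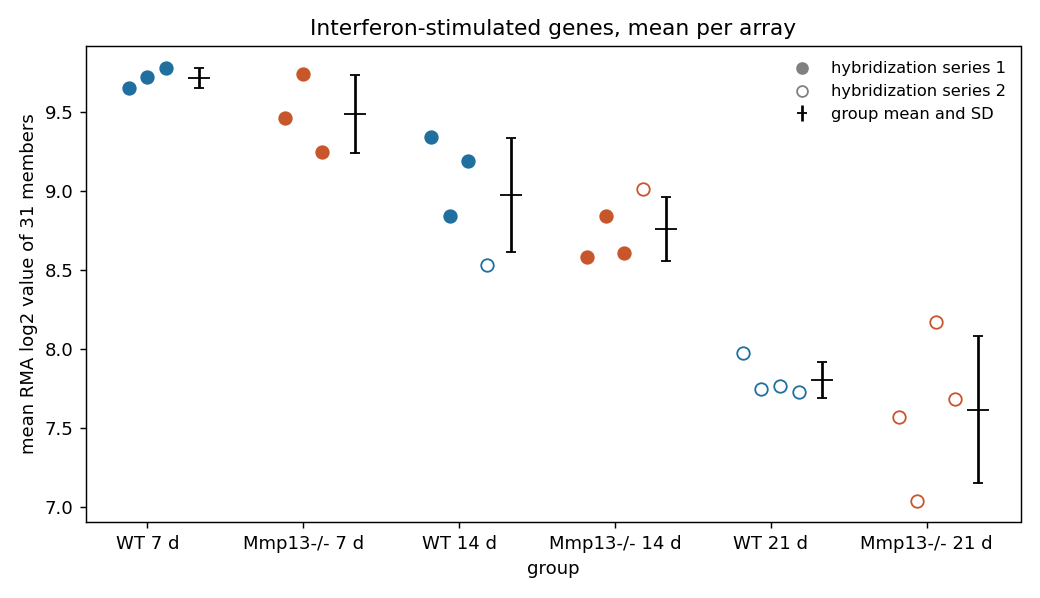
Mean RMA log2 value of the 31 members (y axis) on each of the 22 arrays, by group; filled points are hybridization series 1 and open points series 2, and bars give the group mean and SD. WT arrays run from 9.65 to 9.78 at 7 d down to 7.73 to 7.98 at 21 d, and the open 14 d points, 8.53 in WT and 9.01 in *Mmp13*-/- tissue, lie on opposite sides of the filled ones.

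By gene, the difference between the group means of 21 d and 7 d was below 0 for 31 of 31 members in both genotypes, against 39.6% of all genes in WT and 38.4% in *Mmp13*-/- tissue. Its median was -1.72 in WT tissue, with the farthest value at -3.52 for *Cmpk2* and the nearest at -0.65 for *Bst2*. The median in *Mmp13*-/- tissue was -1.73, from -3.08 for *Slfn4* to -0.64 for *Trim25*. A level more than 2-fold lower at 21 d than at 7 d was found for 28 members in each genotype, against 2.96% of all genes in WT and 2.35% in *Mmp13*-/- tissue. A level more than 4-fold lower was found for 12 members in WT and 14 in *Mmp13*-/- tissue, against 0.456% and 0.374% of all genes. These differences were not tested, and no hybridization series holds arrays of both days.

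**Figure D3:**
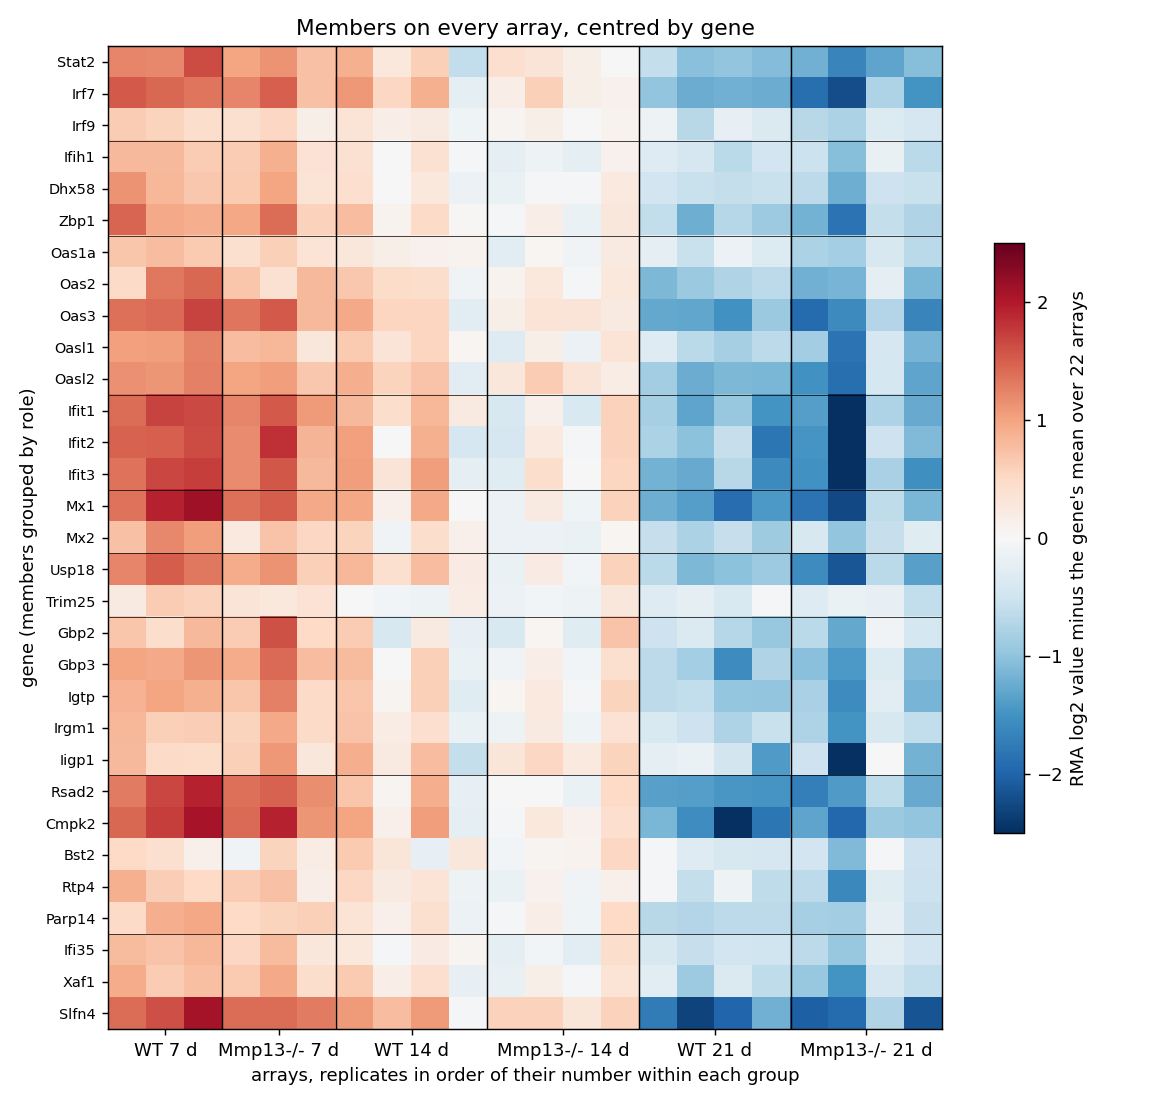
RMA log2 values of the 31 members (rows, grouped by role) on the 22 arrays (columns, by group), each gene centred on its own mean over all arrays; the colours saturate at 2.5 above and below it. Nearly all cells are red at 7 d and blue at 21 d. WT 14 d replicate 4 (the last column of its block) is the lowest of its group for 26 genes, and *Mmp13*-/- 21 d replicate 2 (the second column of the last block) likewise for 26. The share of all genes lowest on these arrays is not given.

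The days were then compared in steps, within each genotype, by a linear model of all 22 arrays with the hybridization series as a term (limma, p-values adjusted over all 45037 probe sets by Benjamini-Hochberg, called at an adjusted p under 0.05). From 7 d to 14 d in WT tissue, 7 of 31 members fell, against 0.912% of all genes called lower. Those were *Rsad2*, *Trim25*, *Stat2*, *Ifi35*, *Oas1a*, *Mx2* and *Dhx58*. All 31 differences were below 0 (50.7% of all genes), with a median of -0.71 against 0.00 over all genes, and 25 had an unadjusted p under 0.05 (6.17% of all genes on that side). The arrays of 14 d lay below all arrays of 7 d for 24 members, against 6.14% of all genes. The count of called members lay between 0 and 9 when 1 array was left out, with 0 without WT 7 d replicate 3. The share of all probe sets called in such fits is not given, here or below.

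From 14 d to 21 d in WT tissue, 5 members fell (0.346% of all genes called lower), namely *Slfn4*, *Rsad2*, *Cmpk2*, *Usp18* and *Mx1*. Again 31 of 31 differences were below 0 (48.1% of all genes), the median was -0.97 against 0.01 over all genes, and 29 had an unadjusted p under 0.05 (7.87%). The arrays did not overlap for 25 members (6.32%). *Rsad2* was called in both steps. When 1 array was left out the count lay between 0, without *Mmp13*-/- 14 d replicate 4, and 10, without *Mmp13*-/- 21 d replicate 3. Without the hybridization term 26 members were called lower here and 26 in *Mmp13*-/- tissue, against 4.73% and 3.0% of all probe sets.

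In *Mmp13*-/- tissue the same steps gave 1 called member each, *Rsad2* from 7 d to 14 d (0.484% of all genes called lower) and *Slfn4* from 14 d to 21 d (0.0275%). The differences of all 31 members were below 0 in either step (49.2% and 50.4% of all genes), with medians of -0.64 and -1.0 against 0.00 and 0.00 over all genes. An unadjusted p under 0.05 was found for 24 and 30 members (4.55% and 7.54%), and the arrays did not overlap for 22 and 27 members (5.69% and 5.13%). The count of called members was thus smaller than in WT. A test of the difference between the genotypes in the size of the step called 0 of 31 members in either step. The share of all genes called by that test is not given, so equal steps cannot be read from it. Its unadjusted p was under 0.05 for 0 members in the first step (share of all genes not given) and for *Mx2* alone in the second (3.26% of all genes on that side). Leaving out 1 array gave 0 to 4 called members in the first *Mmp13*-/- step and 0 to 13, the latter without WT 14 d replicate 4, in the second. The steps of both genotypes share the hybridization term and its 14 d arrays.

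The same order of days was seen within a single hybridization series, though in series 2 with only 1 array of 14 d per genotype. In series 1, all 3 WT arrays of 14 d lay below all 3 of 7 d for 24 of 31 members (10.7% of all genes), and in *Mmp13*-/- tissue for 28 (10.1%). A fit to series 1 alone called 10 members lower from 7 d to 14 d in WT and 14 in *Mmp13*-/- tissue, against 0.997% and 0.711% of all probe sets. In series 2, the only WT array of 14 d lay above all 4 of 21 d for 28 members (22% of all genes) and the only *Mmp13*-/- one for 31 (23.0%). The members move together on an array, so each of these 2 counts rests on 1 array of 14 d and is no replicated result. The size of the second step rested on those 14 d arrays: without WT 14 d replicate 4 the median difference was -1.56 in WT and -1.38 in *Mmp13*-/- tissue, and without *Mmp13*-/- 14 d replicate 4 it was -0.64 and -0.43.

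**Figure D4:**
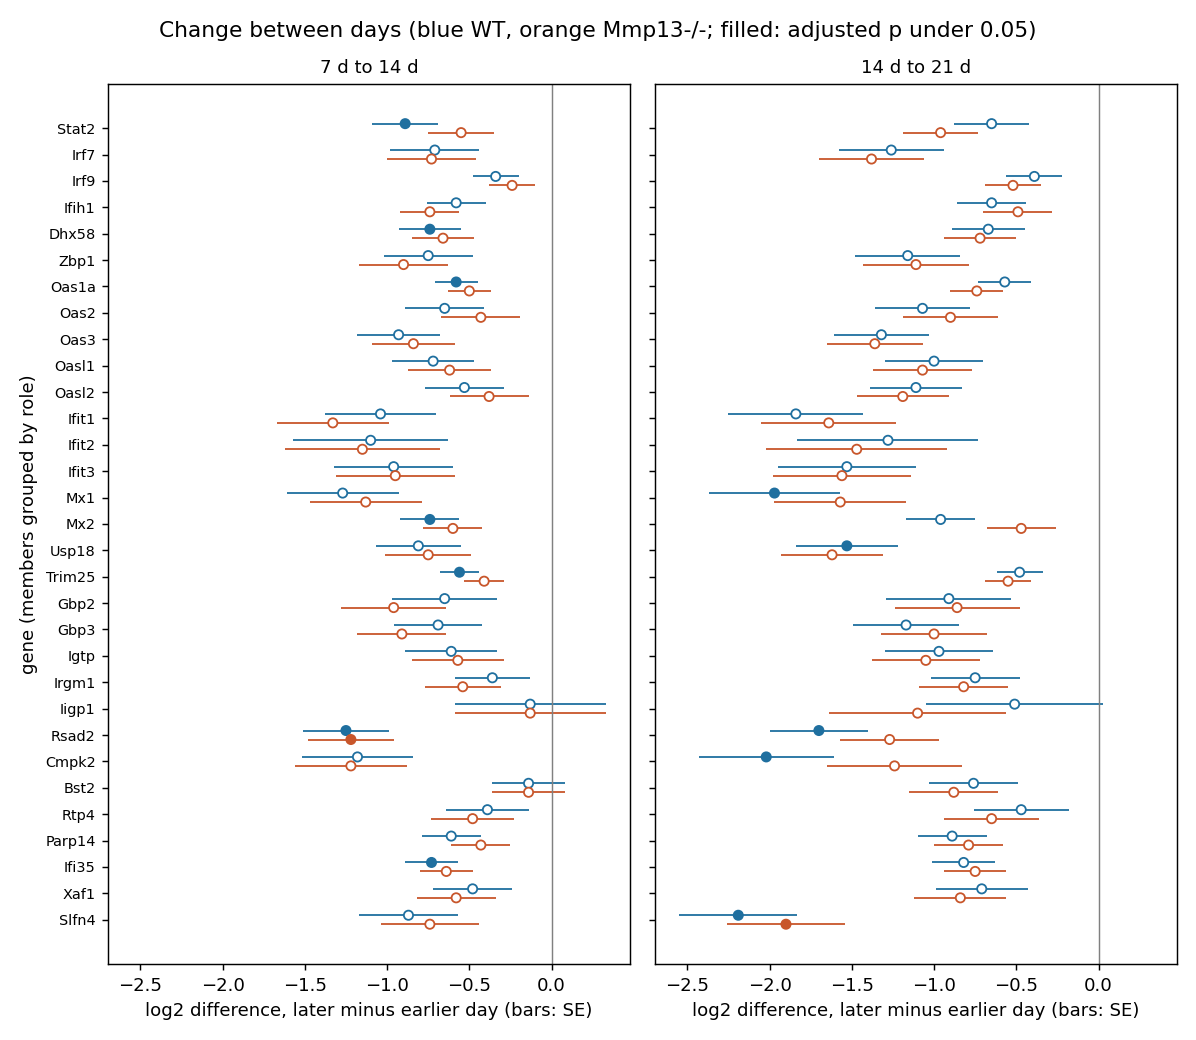
Log2 difference of each member between days (x axis, later minus earlier day, with the SE of the fit), 7 d to 14 d on the left and 14 d to 21 d on the right; filled points have an adjusted p under 0.05. All points lie left of 0, with 7 filled WT points and 1 filled *Mmp13*-/- point on the left and 5 and 1 on the right.

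Among the transcription factors, *Stat2*, whose product is part of the complex that binds the ISRE, read 7.36, 7.34 and 7.77 at 7 d, 7.02, 6.39, 6.73 and 5.52 at 14 d and 5.53, 5.09, 5.15 and 5.05 at 21 d on the WT arrays. On the *Mmp13*-/- arrays it read 7.12, 7.26 and 6.87 at 7 d, 6.55, 6.45, 6.27 and 6.12 at 14 d and 4.92, 4.48, 4.82 and 5.07 at 21 d. The WT arrays of 7 d all lay above those of 14 d, while WT 14 d replicate 4, the array of series 2, was just under the highest WT array of 21 d. *Stat2* fell by 0.89 on the log2 scale (SE 0.20, adjusted p = 0.0216) in WT tissue from 7 d to 14 d, while a dimmer probe set of the gene gave -0.69 without a call (adjusted p = 0.313). It was also the only member whose hybridization term was called, at -0.75 for series 2 minus series 1. *Irf7*, which drives the making of type I interferon itself, read 10.94, 10.86 and 10.75 at 7 d, 10.49, 9.93, 10.31 and 9.19 at 14 d and 8.42, 8.17, 8.22 and 8.18 at 21 d in WT tissue. *Irf7* read 10.63, 10.91 and 10.14 at 7 d, 9.59, 10.01, 9.57 and 9.53 at 14 d and 7.53, 7.20, 8.65 and 7.92 at 21 d in *Mmp13*-/- tissue. Its days did not overlap within either genotype, and its differences from 14 d to 21 d, -1.26 (SE 0.32) in WT and -1.38 (SE 0.32) in *Mmp13*-/- tissue, missed the threshold (adjusted p = 0.0783 and 0.0896). *Irf9*, the DNA-binding subunit of the complex, read 8.19, 8.10 and 7.99 at 7 d, 7.89, 7.72, 7.78 and 7.45 at 14 d and 7.42, 6.86, 7.34 and 7.19 at 21 d in WT tissue. *Irf9* read 7.95, 8.07 and 7.69 at 7 d, 7.62, 7.69, 7.54 and 7.64 at 14 d and 6.85, 6.75, 7.20 and 7.13 at 21 d in *Mmp13*-/- tissue. Its arrays overlapped between days only in *Mmp13*-/- tissue, from 7 d to 14 d. Its differences were the smallest of the 3 factors in each step, between -0.52 and -0.24, and none passed the test.

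The nucleic acid sensors among the members were *Ifih1* (MDA5) and *Dhx58* (LGP2), both binding double-stranded RNA, and *Zbp1*, which binds nucleic acid in the Z form. *Dhx58* read 8.84, 8.55 and 8.38 at 7 d, 8.13, 7.71, 7.97 and 7.57 at 14 d and 7.23, 7.16, 7.11 and 7.15 at 21 d in WT tissue. *Dhx58* read 8.37, 8.69 and 8.06 at 7 d, 7.55, 7.67, 7.66 and 7.96 at 14 d and 7.06, 6.49, 7.20 and 7.16 at 21 d in *Mmp13*-/- tissue. The WT days were apart from each other, and *Dhx58* fell by 0.74 (SE 0.19, adjusted p = 0.0449) from 7 d to 14 d, with -0.52 and no call on a dimmer probe set (adjusted p = 0.843). *Ifih1* read 9.67, 9.66 and 9.50 at 7 d, 9.24, 8.86, 9.23 and 8.80 at 14 d and 8.53, 8.44, 8.19 and 8.38 at 21 d in WT tissue. *Ifih1* read 9.49, 9.74 and 9.21 at 7 d, 8.61, 8.74, 8.63 and 8.97 at 14 d and 8.33, 7.79, 8.67 and 8.19 at 21 d in *Mmp13*-/- tissue. Here the 14 d and 21 d arrays of *Mmp13*-/- tissue overlapped, through 21 d replicate 3. *Zbp1* had a mean of 8.72 ± 0.30 at 7 d and 6.76 ± 0.27 at 21 d in WT and of 8.60 ± 0.41 and 6.52 ± 0.56 in *Mmp13*-/- tissue, without a call in either step.

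The OAS family, whose enzymes make the oligoadenylates that activate RNase L, gave 1 call among 5 members. *Oas1a* read 11.11, 11.18 and 11.07 at 7 d, 10.70, 10.55, 10.52 and 10.50 at 14 d and 10.16, 9.85, 10.27 and 10.06 at 21 d in WT tissue. *Oas1a* read 10.80, 11.01 and 10.74 at 7 d, 10.13, 10.45, 10.31 and 10.63 at 14 d and 9.62, 9.56, 10 and 9.74 at 21 d in *Mmp13*-/- tissue. The days did not overlap in either genotype, and *Oas1a* fell by 0.58 (SE 0.13, adjusted p = 0.0244) from 7 d to 14 d. *Oas3* had the larger differences, -0.93 and -1.32 in the 2 WT steps, with adjusted p-values of 0.0624 and 0.0519. *Oas2* and the OAS-like *Oasl1* and *Oasl2* had WT differences between -0.53 and -1.11, none called. The family median was -0.65 and -1.07 in the WT steps and -0.50 and -1.07 in the *Mmp13*-/- steps.

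The IFIT proteins, which bind foreign RNA and hold back its translation, had the lowest medians of all role groups from 7 d to 14 d, -1.04 in WT and -1.15 in *Mmp13*-/- tissue, and medians of -1.53 and -1.56 in the later step. *Ifit1* read 10.39, 10.68 and 10.65 at 7 d, 9.80, 9.44, 9.82 and 9.21 at 14 d and 8.17, 7.68, 8.04 and 7.49 at 21 d in WT tissue. *Ifit1* read 10.21, 10.52 and 10.06 at 7 d, 8.60, 9.12, 8.62 and 9.56 at 14 d and 7.61, 6.22, 8.23 and 7.73 at 21 d in *Mmp13*-/- tissue. Its days did not overlap in either genotype, although the 4 *Mmp13*-/- arrays of 21 d alone spanned 6.22 to 8.23. None of the 3 genes was called in any step: *Ifit1* came nearest, at -1.84 (SE 0.41, adjusted p = 0.0511) from 14 d to 21 d in WT tissue. *Ifit2* differed by -1.10 and -1.28 and *Ifit3* by -0.96 and -1.53 in the WT steps. The SE of *Ifit2*, 0.47 and 0.55, was the largest among the members.

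*Mx1* and *Mx2* encode dynamin-like GTPases that trap viral components. *Mx1* read 8.32, 8.87 and 9.07 at 7 d, 7.93, 7.09, 7.91 and 6.96 at 14 d and 5.73, 5.57, 5.05 and 5.52 at 21 d in WT tissue. *Mx1* read 8.34, 8.46 and 7.90 at 7 d, 6.81, 7.17, 6.85 and 7.53 at 14 d and 5.10, 4.69, 6.32 and 5.81 at 21 d in *Mmp13*-/- tissue. No 2 days overlapped, and *Mx1* fell by 1.97 (SE 0.40, adjusted p = 0.0402) from 14 d to 21 d in WT tissue. *Mx2* read 6.44, 6.90 and 6.75 at 7 d, 6.26, 5.61, 6.14 and 5.82 at 14 d and 5.13, 4.91, 5.13 and 4.82 at 21 d in WT tissue. *Mx2* read 5.95, 6.42 and 6.21 at 7 d, 5.56, 5.56, 5.53 and 5.74 at 14 d and 5.30, 4.71, 5.12 and 5.40 at 21 d in *Mmp13*-/- tissue. It fell by 0.74 (SE 0.18, adjusted p = 0.0389) in WT tissue from 7 d to 14 d, and its genotype difference moved by 0.50 between 14 d and 21 d (SE 0.23, unadjusted p = 0.0424, adjusted p = 0.747).

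ISG15 is a ubiquitin-like tag, USP18 removes it and dampens the interferon receptor, and TRIM25 is a ubiquitin ligase that arms the RNA sensor RIG-I. *Usp18* read 10.05, 10.34 and 10.15 at 7 d, 9.66, 9.24, 9.61 and 9.03 at 14 d and 8.16, 7.70, 7.80 and 7.93 at 21 d in WT tissue. *Usp18* read 9.75, 9.96 and 9.42 at 7 d, 8.67, 9.04, 8.77 and 9.41 at 14 d and 7.25, 6.69, 8.15 and 7.48 at 21 d in *Mmp13*-/- tissue. All days were apart in both genotypes, and *Usp18* fell by 1.53 (SE 0.31, adjusted p = 0.0391) from 14 d to 21 d in WT tissue, while the -1.62 of *Mmp13*-/- tissue had an adjusted p of 0.0501. *Trim25* read 10.17, 10.58 and 10.51 at 7 d, 9.93, 9.88, 9.82 and 10.12 at 14 d and 9.62, 9.72, 9.57 and 9.89 at 21 d in WT tissue. *Trim25* read 10.26, 10.21 and 10.31 at 7 d, 9.79, 9.87, 9.82 and 10.22 at 14 d and 9.63, 9.77, 9.73 and 9.33 at 21 d in *Mmp13*-/- tissue. Neighbouring days overlapped in 1 step of each genotype, and the SE of *Trim25* was the smallest of all members. It fell by 0.56 (SE 0.12, adjusted p = 0.0163) from 7 d to 14 d in WT tissue. Its other probe sets gave -0.74 with a call (limma adjusted p = 0.0163) and -0.43 without one (adjusted p = 0.0727). The probe set that *Isg15* shares with *Gm9706* read 10.38, 10.38 and 10.44 at 7 d, 9.96, 9.40, 9.81 and 9.24 at 14 d and 8.40, 7.58, 8.02 and 7.70 at 21 d in WT tissue. It read 10.17, 10.41 and 9.76 at 7 d, 8.99, 9.23, 8.99 and 9.64 at 14 d and 7.46, 6.58, 8.40 and 7.76 at 21 d in *Mmp13*-/- tissue. That probe set fell by 1.71 (SE 0.37, adjusted p = 0.0497) from 14 d to 21 d in WT tissue, and its signal cannot be assigned to either gene.

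The interferon-inducible GTPases, which respond strongly to interferon gamma and act on vacuoles that hold microbes, had no call in any step among 5 members. *Gbp2*, a guanylate-binding protein, read 9.82, 9.56 and 9.93 at 7 d, 9.76, 8.73, 9.35 and 8.92 at 14 d and 8.60, 8.76, 8.42 and 8.17 at 21 d in WT tissue. *Gbp2* read 9.76, 10.72 and 9.62 at 7 d, 8.75, 9.18, 8.82 and 9.84 at 14 d and 8.44, 7.84, 9.03 and 8.69 at 21 d in *Mmp13*-/- tissue. Neighbouring days overlapped in both genotypes. *Iigp1*, an immunity-related GTPase, read 9.48, 9.16 and 9.13 at 7 d, 9.58, 8.89, 9.45 and 8.07 at 14 d and 8.43, 8.51, 8.22 and 7.25 at 21 d in WT tissue. *Iigp1* read 9.27, 9.76 and 8.96 at 7 d, 8.97, 9.19, 8.91 and 9.24 at 14 d and 8.15, 6.04, 8.69 and 7.50 at 21 d in *Mmp13*-/- tissue. At 21 d its *Mmp13*-/- arrays spanned 6.04 to 8.69, a wider span than the distance between the group means of 7 d and 21 d, and its WT differences of -0.13 (SE 0.46) and -0.51 (SE 0.54) had adjusted p-values of 0.999 and 0.717. *Gbp3*, *Igtp* and *Irgm1* had WT differences of -0.69, -0.61 and -0.36 in the first step and -1.17, -0.97 and -0.75 in the second.

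Of the other antiviral effectors, *Rsad2* (viperin), a radical enzyme that makes a chain-ending nucleotide, read 11.98, 12.35 and 12.60 at 7 d, 11.36, 10.74, 11.58 and 10.46 at 14 d and 9.31, 9.29, 9.22 and 9.19 at 21 d in WT tissue. *Rsad2* read 12.05, 12.14 and 11.84 at 7 d, 10.69, 10.68, 10.50 and 11.18 at 14 d and 8.97, 9.25, 10.04 and 9.41 at 21 d in *Mmp13*-/- tissue. No 2 days overlapped in either genotype, and the 4 WT arrays of 21 d lay close together. *Rsad2* fell by 1.25 (SE 0.26, adjusted p = 0.0129) in WT tissue from 7 d to 14 d and fell by 1.70 (SE 0.30, adjusted p = 0.0261) from 14 d to 21 d. In *Mmp13*-/- tissue it fell by 1.22 (SE 0.26, adjusted p = 0.0278) in the first step, and its -1.27 in the second had an adjusted p of 0.102. That first *Mmp13*-/- step was not called on its dimmer probe sets, at -1.30 and -1.08 (limma adjusted p = 0.0984 and 0.304). In the WT steps the former was called, at -1.41 and -1.85 (adjusted p = 0.0302 and 0.045). The latter was not, at -1.03 and -1.42 (adjusted p = 0.213 and 0.129). *Cmpk2*, a mitochondrial nucleotide kinase, read 9.03, 9.32 and 9.66 at 7 d, 8.59, 7.73, 8.63 and 7.36 at 14 d and 6.46, 6.04, 4.97 and 5.78 at 21 d in WT tissue. *Cmpk2* read 9.01, 9.52 and 8.70 at 7 d, 7.54, 7.85, 7.70 and 8.01 at 14 d and 6.27, 5.63, 6.67 and 6.60 at 21 d in *Mmp13*-/- tissue. WT 21 d replicate 3 was the lowest, and *Cmpk2* fell by 2.02 (SE 0.41, adjusted p = 0.0385) from 14 d to 21 d in WT tissue. A dimmer probe set of the gene gave -1.23 there without a call (limma adjusted p = 0.18).

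*Bst2*, *Rtp4*, an interferon-induced chaperone-like protein, and *Parp14*, an ADP-ribosyltransferase, gave no call on the brightest probe set of each. *Bst2* differed by less than its spread in the first step, with a mean of 9.96 ± 0.20 at 7 d and 9.88 ± 0.35 at 14 d in WT tissue, and read 9.32 ± 0.17 at 21 d. *Rtp4* had WT means of 10.70 ± 0.19, 10.27 ± 0.27 and 9.68 ± 0.31 at the 3 days, and *Parp14* of 9.51 ± 0.27, 8.91 ± 0.24 and 8.05 ± 0.04. On those probe sets the lowest adjusted p of these 3 in WT tissue was that of *Parp14* in the second step (0.0624).

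*Slfn4*, a Schlafen gene of myeloid cells, had the largest difference of all members in the second step. It read 12.15, 12.37 and 12.84 at 7 d, 11.82, 11.53, 11.81 and 10.73 at 14 d and 9.01, 8.44, 8.77 and 9.56 at 21 d in WT tissue. *Slfn4* read 12.15, 12.15 and 12.06 at 7 d, 11.33, 11.34, 11.06 and 11.34 at 14 d and 8.71, 8.84, 10 and 8.59 at 21 d in *Mmp13*-/- tissue. The days did not overlap, and WT 14 d replicate 4 and *Mmp13*-/- 21 d replicate 3 lay nearest to the neighbouring day. *Slfn4* fell by 2.19 (SE 0.36, adjusted p = 0.0203) from 14 d to 21 d in WT and fell by 1.90 (SE 0.36, adjusted p = 0.0498) in *Mmp13*-/- tissue. A probe set shared with *Slfn3* gave -2.21 (SE 0.47, limma adjusted p = 0.0448) in WT tissue and, without a call, -1.88 (SE 0.47, adjusted p = 0.105) in *Mmp13*-/- tissue. *Ifi35* read 10.98, 10.90 and 11.01 at 7 d, 10.45, 10.13, 10.39 and 10.25 at 14 d and 9.79, 9.60, 9.70 and 9.69 at 21 d in WT tissue. *Ifi35* read 10.70, 10.98 and 10.46 at 7 d, 9.93, 10.11, 9.90 and 10.62 at 14 d and 9.53, 9.24, 9.92 and 9.71 at 21 d in *Mmp13*-/- tissue. It fell by 0.73 (SE 0.16, adjusted p = 0.0228) from 7 d to 14 d in WT tissue, with -0.60 and -0.37 and no call on its other probe sets (adjusted p = 0.148 and 0.623). *Xaf1*, which binds the apoptosis inhibitor XIAP, had WT means of 9.82 ± 0.14, 9.31 ± 0.37 and 8.51 ± 0.29 at the 3 days and no call.

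The question of the study was how the absence of MMP-13 changes the tissue at each day, and here 0 of 31 members were called between the genotypes at any day (limma; 0.011%, 0.022% and 0.0165% of all genes called lower, and 0.0%, 0.0% and 0.0275% higher). At an unadjusted p under 0.05, 1, 1 and 3 members were lower in *Mmp13*-/- tissue (1.11%, 2.94% and 6.78% of all genes). Most differences were nevertheless on the lower side: 28 of 31 at 7 d (51.3% of all genes), 30 at 14 d (49.5%) and 24 at 21 d (52.3%). Their medians were -0.25, -0.20 and -0.22, against 0.00, 0.00 and -0.01 over all genes, and the SE of single members ran from 0.11 to 0.48. The members move together on an array, so these counts are not counts of independent genes, and the genotype differences of single members were within or near the spread between arrays.

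At 7 d, *Mx2* had the smallest p of the members, -0.50 (SE 0.19, unadjusted p = 0.0138), followed by *Stat2* at -0.41 (SE 0.20) and *Oas1a* at -0.27 (SE 0.14). All 3 *Mmp13*-/- arrays lay below all 3 WT arrays for 6 members (4.33% of all genes), *Stat2*, *Oas1a*, *Oasl1*, *Oasl2*, *Mx2* and *Usp18*. An exact permutation test cannot give less than 0.10 with 3 arrays against 3. Higher means in *Mmp13*-/- tissue were found for the GTPases *Gbp2* (0.26), *Iigp1* (0.07) and *Gbp3* (0.02), with SE between 0.28 and 0.47.

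At 14 d, the members with the smallest p were *Mx2* at -0.36 (SE 0.16, unadjusted p = 0.0374), *Ifit1* at -0.59 (SE 0.31) and *Ifih1* at -0.29 (SE 0.16), and the *Mmp13*-/- arrays lay below all WT arrays for 0 of 31 members (2.58% of all genes). This comparison differed between the hybridization series. In series 1 the median difference was -0.44, and all 3 *Mmp13*-/- arrays lay below all 3 WT arrays for 15 members (8.59% of all genes). In series 2, with 1 array of each genotype, the median was 0.46 and the *Mmp13*-/- array was the higher for 30 members (46.6% of all genes). The mean of the members on those arrays was 8.53 in WT and 9.01 in *Mmp13*-/- tissue, and *Ifit1* and *Ifih1* were higher in *Mmp13*-/- tissue there, by 0.35 and 0.17.

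At 21 d, *Oas1a* had the smallest p, -0.35 (SE 0.12, unadjusted p = 0.00704, adjusted p = 0.234), before *Stat2* at -0.38 (SE 0.18, adjusted p = 0.4) and *Usp18* at -0.50 (SE 0.23, adjusted p = 0.406). The exact two-sided permutation p was 0.0571 for *Oas1a*, 0.0571 for *Stat2* and 0.171 for *Usp18*, where 0.0286 is the smallest that 4 arrays against 4 can give. The *Mmp13*-/- arrays lay below all WT arrays for 0 of 31 members (2.04% of all genes). The members with a higher mean in *Mmp13*-/- tissue included *Cmpk2* at 0.48 (SE 0.31), *Rsad2* at 0.17 (SE 0.23) and *Mx2* at 0.14 (SE 0.16). Here 2 *Mmp13*-/- arrays carried the spread: without replicate 2 the median difference was 0.00, and without replicate 3 it was -0.38.

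**Figure D5:**
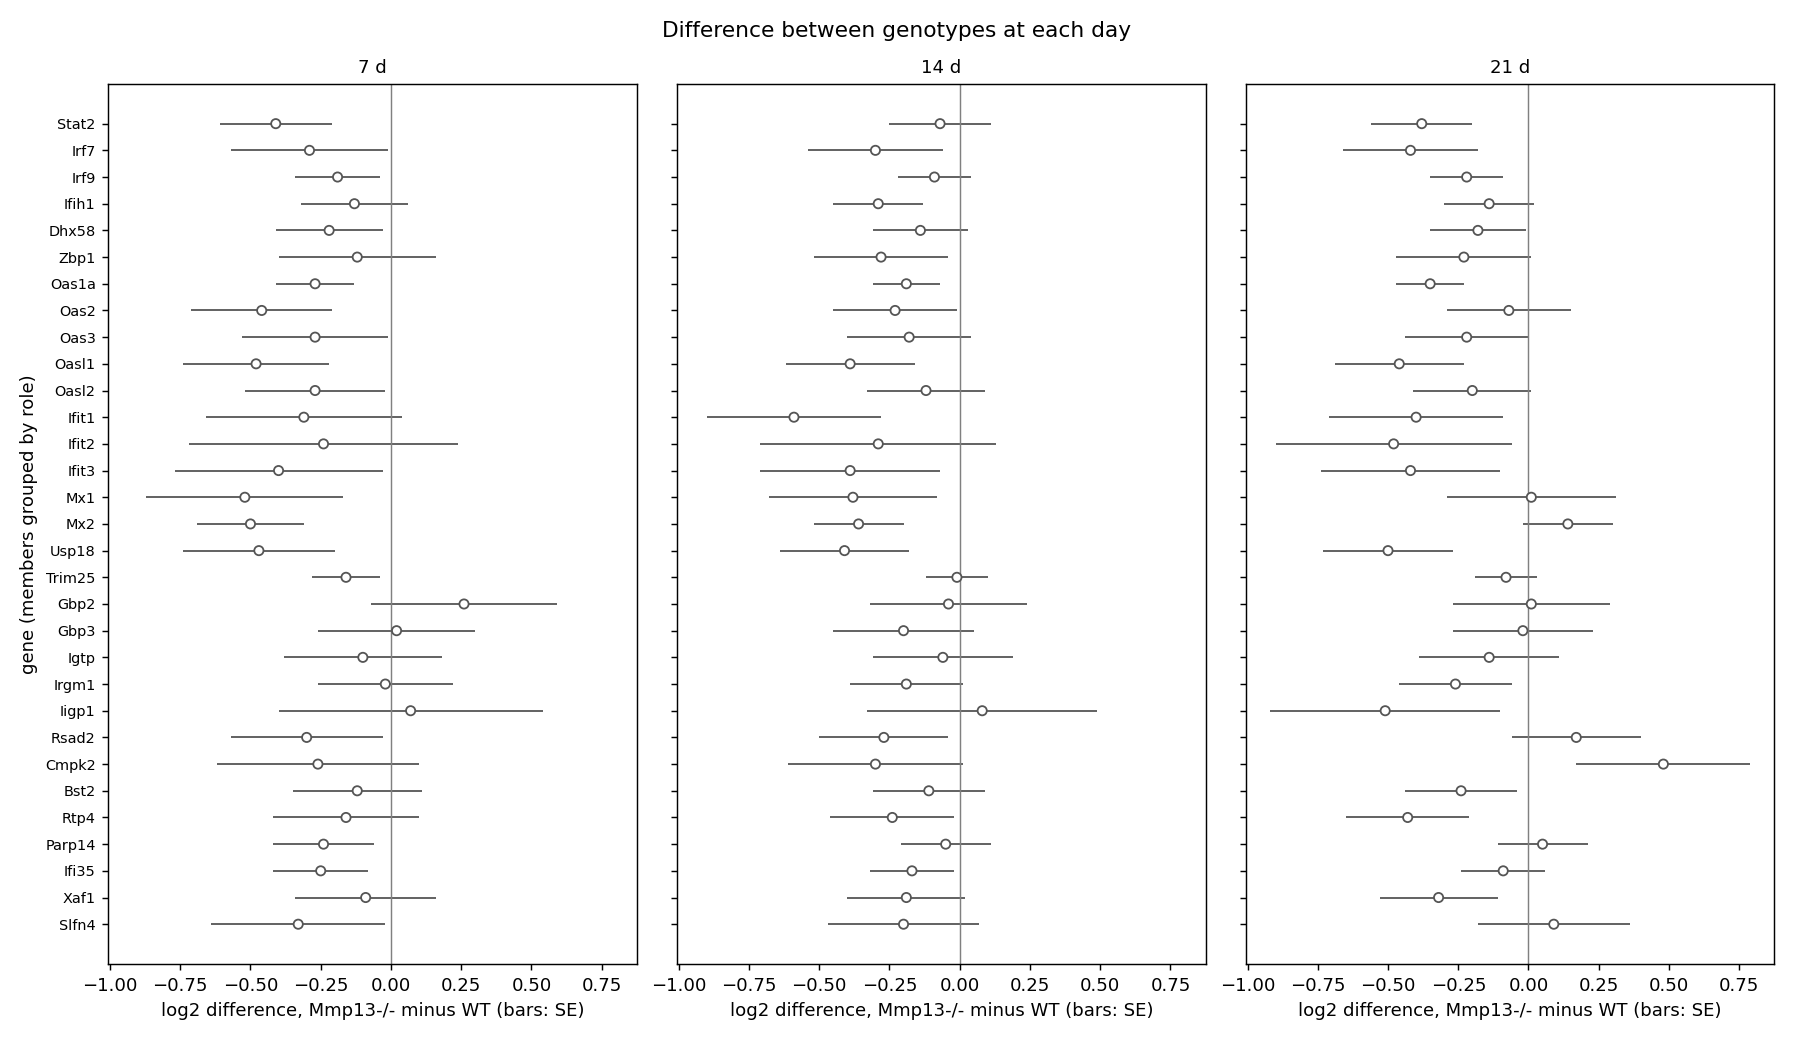
Log2 difference between the genotypes for each member (x axis, *Mmp13*-/- minus WT, with the SE of the fit), 1 panel for each day. Points lie between -0.59 and 0.48, none has an adjusted p under 0.05, and 28, 30 and 24 of 31 lie left of 0.

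In most groups many members were highest or lowest on the same array. The share of all genes highest or lowest on these arrays is not given, so whether this is particular to the members cannot be told. Replicate 4 is the only array of series 2 in each group of 14 d. In WT tissue of 14 d, replicate 1 had the highest value of the group for 25 of 31 members and replicate 4 the lowest for 26. In *Mmp13*-/- tissue, 7 d replicate 2 was the highest for 27 members and replicate 3 the lowest for 26, 14 d replicate 4 the highest for 24, and at 21 d replicate 3 was the highest for 28 and replicate 2 the lowest for 26. The WT arrays of 7 d had no such order, with 15, 10 and 6 members highest on replicates 3, 1 and 2. In WT tissue of 21 d replicate 1 was the highest for 19 members. The lowest values there were split over replicates 2, 3 and 4, with 10, 9 and 11 members. Between the extreme arrays of a group the mean of the members differed by 0.13 in WT tissue of 7 d and by 1.13 in *Mmp13*-/- tissue of 21 d, beside a difference of -1.15 between the group means of 14 d and 21 d in that genotype. *Iigp1* had the widest difference between those *Mmp13*-/- arrays, at 2.65, and *Trim25* the only one on the other side of 0, at -0.04.

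The rest of the pathway was read from lists of genes that are no members. Of 10 interferon ligand genes measured, 7 were dim, among them *Ifnb1*, with group means of 3.03 to 3.52, and *Ifng*, with 2.38 to 2.73. *Ifnb1* had a WT difference of -0.38 (SE 0.14, adjusted p = 0.249) from 7 d to 14 d. *Ifna11*, at group means of 2.35 to 3.09, was the only ligand called in a step, higher by 0.60 (SE 0.13, adjusted p = 0.0485) at 21 d than at 14 d in WT tissue, and the WT arrays of 21 d are all of series 2. Of 6 interferon receptor genes, 5 were not dim. Their mean stayed between 8.09 and 8.20 in all groups, and none was called in any comparison. *Ifnar1*, a chain of the type I receptor, read 8.55 ± 0.10 at 7 d and 8.08 ± 0.16 at 21 d in WT tissue, and *Ifngr1*, of the interferon gamma receptor, 8.76 ± 0.21 and 9.20 ± 0.06. Those 2 days share no hybridization series. In the fit with the hybridization term the WT steps were smaller, -0.09 (SE 0.11) and -0.14 (SE 0.13) for *Ifnar1*. For *Ifngr1* they were 0.11 (SE 0.12) and 0.09 (SE 0.14).

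Of 14 further genes of interferon signal transduction, 12 and 10 had differences below 0 in the WT steps and 10 and 10 in those of *Mmp13*-/- tissue, with medians from -0.14 to -0.32. From 7 d to 14 d in WT tissue 3 of them fell, *Irf1* (-0.71, SE 0.16, adjusted p = 0.0231), a factor induced by interferon gamma, *Irf5* (-0.47, SE 0.11, adjusted p = 0.0274), a factor of Toll-like receptor signalling, and *Ptpn2* (-0.55, SE 0.13, adjusted p = 0.0305), a phosphatase that acts on the JAK kinases. None was called in the other steps. A list of 50 other interferon-stimulated genes had differences below 0 for 43 and 48 genes in the WT steps and for 48 and 47 in the *Mmp13*-/- steps. Its medians were -0.47, -0.60, -0.44 and -0.57, against -0.71, -0.97, -0.64 and -1.0 for the members. In WT tissue 8 of them fell in the first step and 3 in the second, *Ifitm1*, the chemokine *Cxcl10* (-3.18, SE 0.59, adjusted p = 0.0278) and *Ms4a4c*, while *Ifi27*, a mitochondrial protein gene, rose by 0.65 (SE 0.14, adjusted p = 0.0489). In *Mmp13*-/- tissue 2 fell in the first step, *Tor3a* and *Herc6*, and 0 in the second.

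Markers of immune and other cells of the wound were set beside these values. The mean of 7 monocyte markers in WT tissue was 9.26 at 7 d (arrays 9.19 to 9.39), 9.26 at 14 d (9.14 to 9.33) and 8.48 at 21 d (8.31 to 8.61), and in *Mmp13*-/- tissue 9.30 (9.15 to 9.43), 8.88 (8.69 to 9.17) and 8.54 (8.24 to 8.88). That of 9 neutrophil markers in WT tissue was 6.85 (6.75 to 6.98), 6.63 (6.42 to 6.96) and 6.12 (5.82 to 6.57), and in *Mmp13*-/- tissue 6.80 (6.60 to 7.08), 6.20 (6.05 to 6.37) and 6.05 (5.84 to 6.18). In the WT steps 5 and 5 of the 7 monocyte markers and 6 and 8 of the 9 neutrophil markers were on the lower side, with medians of -0.07 and -0.40 for monocytes and -0.12 and -0.29 for neutrophils. In the *Mmp13*-/- steps 5 and 4 of the monocyte markers and 8 and 6 of the neutrophil markers were, with medians of -0.56 and -0.01 for monocytes and -0.32 and -0.12 for neutrophils. From 7 d to 14 d *Cx3cr1*, a chemokine receptor of patrolling monocytes and macrophages, rose by 1.24 in WT (SE 0.25, adjusted p = 0.00936) and by 1.29 in *Mmp13*-/- tissue (SE 0.25, adjusted p = 0.0145). In the latter *Vcan*, on the monocyte list, fell by 0.65 (SE 0.13, adjusted p = 0.0198) and the granule protein gene *Lcn2*, on the neutrophil list, fell by 1.71 (SE 0.31, adjusted p = 0.0103). The mean of 13 macrophage markers lay between 9.55 and 9.81 in all groups, with *Mertk*, an uptake receptor, called higher at 14 d than at 7 d in both genotypes. For 8 dendritic cell markers it lay between 5.09 and 5.24. Of these *Itgax* was called higher by 1.03 in WT tissue from 7 d to 14 d (limma adjusted p = 0.00253). For 12 T and NK cell markers it lay between 5.0 and 5.42, and for 6 B and plasma cell markers between 3.55 and 4.47. Neither list had a call in any step. From 14 d to 21 d in WT tissue 7 of the 12 were above 0, while *Gzma* and *Gzmb* differed by -1.81 and -1.76. The 8 markers of plasmacytoid dendritic cells had means of 5.15 to 5.24 and no call in any step; 3 of them were dim, and *Siglech*, a defining one, read 4.14 to 4.31, near the median of all probe sets.

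Among the other cells, all 5 myofibroblast markers had differences above 0 in each step of both genotypes, with medians from 7 d to 14 d of 1.14 in WT and 1.05 in *Mmp13*-/- tissue and medians from 14 d to 21 d of 0.45 and 0.33. From 7 d to 14 d *Myl9*, a myosin light chain of contractile cells, rose by 1.98 in WT (SE 0.29, adjusted p = 0.00107) and by 1.66 in *Mmp13*-/- tissue (adjusted p = 0.0086), and the actin-binding *Tagln* rose by 1.83 (SE 0.31, adjusted p = 0.00291) and 1.88 (adjusted p = 0.00502). *Acta2*, smooth muscle actin, rose by 1.14 in WT tissue (SE 0.28, adjusted p = 0.0371). Of 10 endothelial markers, 9 were higher at 14 d than at 7 d in WT tissue, with a median of 1.16, and 8 in *Mmp13*-/- tissue, with a median of 0.14, and 0 were called (limma; 8 and 0 at an unadjusted p under 0.05). The 11 fibroblast markers had medians of 0.16 and -0.03 in that step, with *Fbln1* and *Pdgfra* called higher in WT tissue and *Dcn* called lower in *Mmp13*-/- tissue. The 5 adipocyte markers had medians of -0.64 and -1.06, the 10 keratinocyte markers 0.48 and 0.06, and the 7 skeletal muscle markers 0.78 and 0.44, with 2 calls among them, both of keratinocyte markers lower in *Mmp13*-/- tissue. From 14 d to 21 d the medians of these 5 lists lay between -0.14 and 0.36, except for those of skeletal muscle at -1.32 in WT and -0.93 in *Mmp13*-/- tissue, and 0 markers were called.

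Between the genotypes at 14 d, 6 cell type lists had medians farther below 0 than that of the members, -0.20. These were -0.83 for keratinocytes (8 of 10 lower, with 6 of the 10 dim), -0.47 for monocytes (6 of 7), -0.46 for neutrophils (8 of 9), -0.35 for adipocytes (5 of 5), -0.33 for fibroblasts (10 of 11) and -0.27 for endothelial cells (10 of 10). Those nearer to 0 were -0.17 for skeletal muscle, -0.07 for myofibroblasts, -0.04 for plasmacytoid dendritic cells and -0.03 for T and NK cells. The rest were -0.02 for B and plasma cells, 0.06 for dendritic cells and 0.09 for macrophages. Of the markers in all these lists 1 was called there, the fibroblast gene *Lum*, which fell by 0.94 in *Mmp13*-/- against WT tissue (SE 0.15, adjusted p = 0.0274). The first 6 lists, in the order given, had medians between the genotypes of -0.02, 0.05, -0.06, -0.33, 0.03 and 0.64 at 7 d. At 21 d their medians were -0.33, 0.04, -0.08, -0.1, -0.2 and -0.37. The part of any of these cells in the differences between days or genotypes was not tested.

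The step sizes were set against the promoter letters shown above. For 12 measured members with the ISRE letters in the window the median difference was -0.67 from 7 d to 14 d and -0.94 from 14 d to 21 d in WT tissue, and for 10 members with a window without them it was -0.71 and -1.06. With the letters the *Mmp13*-/- medians were -0.79 and -0.98, and without them -0.63 and -1.13. The ranges of the 2 sets overlapped in each step. *Slfn4*, called in the second step in both genotypes, and *Cmpk2* had windows without the letters, while *Rsad2*, called in the first step in both, had them. Absence of the letters says only that they are not in these windows.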

How the data were processed

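RNA of 22 sponges was hybridized to Affymetrix mouse whole-genome expression arrays, 1 colour and 1 array per sample. The deposited values are log2 intensities of 45101 probe sets with 2 decimals, which the authors made with RMA between chips after quality control in Expression Console; the version is not given in the sources used here, nor whether both hybridization series were normalized together. RMA leaves no read depth, so the number of arrays sets the precision. After 64 control probe sets were left out, limma (version 3.58.1 in R 4.3.3) fitted 6 group means and a hybridization term to all 22 arrays, with 15 residual and 4.57 prior degrees of freedom, and p-values were adjusted over 45037 probe sets by the Benjamini-Hochberg method at 0.05.

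Genes were named from the platform annotation: 34945 probe sets had 1 symbol, 932 several and 9160 none here. A dim probe set has a mean under 4.22, the median of all. The code was tested on simulated data. Single members were also compared by exact permutation. Other settings concerned the hybridization term, a replicate block, centring, quantile normalization, a filter on dim probe sets, the prior of the fit, the probe sets of a gene, 1 day or 1 hybridization series alone, and leaving out each array. Values on every array are given for members called, for the 3 with the smallest p between genotypes and for 10 set by role. The members and lists were chosen with earlier results of these data known.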

Additional observations from a re-analysis of the deposited data

Results flagged for a closer look

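Of 128 groups of 4 arrays examined (31 members and their mean in the 4 groups of that size), 5 held an array that stood apart from the other 3 by more than Dixon's 95% critical value, where chance flags about 1 in 20 groups. *Irf7*, a factor that drives the making of type I interferon, read 10.01 on *Mmp13*-/- 14 d replicate 2, against 9.53 to 9.59 on the others of the group. *Oas2* read 8.13 on *Mmp13*-/- 21 d replicate 3, against 7.19 to 7.25, and that array was the highest of its group for 28 of 31 members (share of all genes not given). *Mx2* read 5.74 on *Mmp13*-/- 14 d replicate 4, the array of hybridization series 2, against 5.53 to 5.56. *Slfn4* read 11.06 on *Mmp13*-/- 14 d replicate 3, against 11.33 to 11.34. The mean of the 31 members was 7.98 on WT 21 d replicate 1, against 7.73 to 7.76 on the other WT arrays of 21 d.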

How the results depend on the processing

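The members stayed on the lower side of 0 in the steps between days under all settings run for each, for 29 to 31 of 31 members from 7 d to 14 d in *Mmp13*-/- tissue, for 30 or 31 in both WT steps and for 31 in the second *Mmp13*-/- step, while the counts of called members and all genotype signs depended on the settings. Genotype differences and interactions gave 0 called members in all of them, and the share of all probe sets called there is not given. The sign of the genotype difference was lower for 22 to 31 members at 7 d, 1 to 31 at 14 d and 14 to 29 at 21 d.

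In this paragraph and the next, the share of all features tested that was called lower under the same setting follows each count. From 14 d to 21 d the called members numbered 26 in either genotype without the hybridization term (4.73% in WT, 3.0% in *Mmp13*-/- tissue), and 18 in WT (0.91%) and 8 in *Mmp13*-/- tissue (0.118%) with the hybridization series as a random block. In WT tissue they numbered 10 without dim probe sets (0.844%), 9 with trend and robust settings (0.351%) and 8 with the mean of all probe sets of a gene (0.357%). In *Mmp13*-/- tissue they numbered 2 with centred arrays (0.0822%), 2 with quantile normalization (0.0799%) and 2 without dim probe sets (0.102%). Hybridization series 2 alone gave 0 in either genotype (0 of all probe sets called lower), with medians of -0.64 and -1.38, a median genotype difference at 14 d of 0.46 and a median interaction of -0.60, and there the 14 d differences of *Ifit1* and *Ifih1* were reversed, at 0.35 and 0.17. From 7 d to 14 d in *Mmp13*-/- tissue the count was 2 without dim probe sets (0.777%), 4 with trend and robust settings (0.36%) and 14 in series 1 alone (0.711%). The cause was not tested.

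With the replicate number as a replicate block, 0 members were called from 14 d to 21 d in either genotype (0.00222% of all probe sets called lower in WT, 0.00444% in *Mmp13*-/- tissue) and 5 from 7 d to 14 d in WT tissue (0.662%). The labels do not say that the numbers pair the samples, and they were not taken to. Deviations of same-numbered arrays correlated at -0.16 to 0.50 at 7 d and -0.13 to 0.01 at 21 d. At 14 d all 4 pairs lay at 0.12 to 0.61, but the 3 pairs of hybridization series 1 taken alone lay at -0.14 to -0.03.

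Leaving out 1 array gave 0 to 9 called members from 7 d to 14 d and 0 to 10 from 14 d to 21 d in WT tissue, and 0 to 4 and 0 to 13 in *Mmp13*-/- tissue. The share of all probe sets called in these fits is not given here, so whether the members or all calls moved cannot be told. Medians ran from -0.86 to -0.60 and from -1.56 to -0.64 in WT and from -0.77 to -0.52 and from -1.38 to -0.43 in *Mmp13*-/- tissue. Of the WT arrays of 7 d, leaving out replicate 3 took the first WT count to 0 and replicate 2 to 2. Of those of 14 d, replicate 2 took it to 1, replicate 3 to 3 and replicate 4 to 4, as did replicate 4 of the other genotype. The second WT count was 0 when *Mmp13*-/- 14 d replicate 4 was left out, 10 for *Mmp13*-/- 21 d replicate 3, 8 for replicate 2 or 4 of that group, and 2 or 3 for WT 7 d replicates 2 and 3, any WT 14 d array, WT 21 d replicates 2 and 3, *Mmp13*-/- 7 d replicate 1 or *Mmp13*-/- 14 d replicates 1 to 3. The first *Mmp13*-/- call was lost without any *Mmp13*-/- array of 7 d or replicates 1 to 3 of 14 d, and the count was 4 without replicate 4 of either genotype at 14 d, 3 without *Mmp13*-/- 21 d replicate 2 and 2 without replicate 3. The second was lost without 16 of 22 arrays, and the count was 13 when WT 14 d replicate 4 was left out, 9 for *Mmp13*-/- 21 d replicate 3 and 4 for WT 21 d replicate 3.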

Other observations

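Where a member had further probe sets of its own, these mostly had the same sign, with sizes and calls that differed. Of 14 such probe sets above the dim range, 14 had the sign of the brightest one in both WT steps and in the first *Mmp13*-/- step, and 13 in the second *Mmp13*-/- step. Between the genotypes the sign was shared by 14 at 7 d, 12 at 14 d and 13 at 21 d. The exception in the second *Mmp13*-/- step was *Cmpk2*, at 0.02 against -1.24 on the brightest probe set. From 14 d to 21 d a further probe set of *Stat2* gave -0.18 against -0.65 in WT and -0.20 against -0.96 in *Mmp13*-/- tissue, and one of *Dhx58* gave -0.07 against -0.67 in WT tissue. *Rtp4*, without a call on its brightest probe set, fell by 0.85 on its other one from 7 d to 14 d in WT tissue (limma adjusted p = 0.00822), against -0.39. That other probe set was also called lower from 7 d to 14 d in *Mmp13*-/- tissue (-0.76, adjusted p = 0.035, against -0.48). From 14 d to 21 d it was called lower in WT tissue (-0.89, adjusted p = 0.0499, against -0.47). A further probe set of *Trim25* was called lower from 14 d to 21 d in WT (-1.03, adjusted p = 0.0261) and in *Mmp13*-/- tissue (-1.12, adjusted p = 0.0324), where the brightest gave -0.48 and -0.55. Probe sets of a gene are read from the same RNA and are no replicates.

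Nucleic acid sensing genes that are no members, which code for receptors of viral RNA and DNA and for the proteins that pass on their signal, numbered 14 measured. In WT tissue 11 had differences below 0 in either step, with medians of -0.28 and -0.26, and in *Mmp13*-/- tissue 12 and 11, with medians of -0.21 and -0.30. From 7 d to 14 d in WT tissue 2 of them fell, *Mb21d1*, the gene of the cytosolic DNA sensor cGAS, by 0.75 (SE 0.15, limma adjusted p = 0.00993) and *Ikbke*, a kinase of interferon regulatory factors, by 0.59 (SE 0.14, adjusted p = 0.0356). Between the genotypes 0 of 14 were called at any day (limma), and at an unadjusted p under 0.05 the counts were 0 at 7 d, 1 at 14 d and 2 at 21 d.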
